A study of Mus musculus with 16 samples.

Results

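The genes examined here are 10 that run lipolysis and the lipid droplet of the fat cell: Adrb3, Pnpla2, Lipe, Mgll, Abhd5, G0s2, Plin1, Plin4, Plin5 and Cidec. They were chosen for their known function, although earlier results of these data were known. They were taken by symbol, by a rule that sets no condition on measured values, from the 54752 gene IDs of the count table of iWAT. This is the inguinal white adipose tissue that lies under the skin of the groin. All 10 were found and all 10 passed the filter on low counts, which left 19736 genes for testing. The study asked what 1 ob allele of Lep, the gene of the adipocyte hormone leptin, does to the fat of mice that carry a mutant SOD1 transgene and develop a motor neuron disease like amyotrophic lateral sclerosis.

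RNA was sequenced from 16 libraries, 4 for each genotype, from mice labelled as C57BL/6, female and 90 days old, which the methods place on a C57BL/6J background. WT mice carried neither mutation, Lepob/+ mice were heterozygous for the ob allele, SOD1G93A mice carried a human SOD1 transgene with a mutation found in the familial disease, and SOD1G93A-Lepob/+ mice carried both. The transgene is a high-copy insertion under the human SOD1 promoter and is not limited to 1 cell type, and the ob allele is a germline mutation, so neither model acts in fat alone. The double mutants came from Lepob/+ mothers and SOD1G93A fathers. Whole tissue was measured, so for each result below fewer fat cells and less RNA per fat cell cannot be told apart.

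Fat cells store triglyceride in 1 large droplet. Noradrenaline reaches them through beta-adrenergic receptors, of which the product of Adrb3 is the typical one of rodent fat, and raises cAMP and the activity of protein kinase A. The kinase phosphorylates the droplet coat protein perilipin 1 (Plin1), which then lets go of the co-activator CGI-58 (Abhd5). CGI-58 activates adipose triglyceride lipase (ATGL, Pnpla2), which takes the first fatty acid from triglyceride, while G0s2 binds and inhibits ATGL. Hormone-sensitive lipase (Lipe) and monoglyceride lipase (Mgll) remove the remaining fatty acids in turn. Perilipin 4 (Plin4) coats droplets of white fat cells, perilipin 5 (Plin5) is best known from droplets of oxidative tissues such as brown fat, heart and muscle, and Cidec (FSP27) fuses small droplets into large ones.

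The positions are those of GRCm38 with GENCODE M21, the build of the alignments. Adrb3 (ENSMUSG00000031489) lies on chromosome 8 from 27225776 to 27250616, on the minus strand. Pnpla2 (ENSMUSG00000025509, 141455198 to 141460743, plus strand), Lipe (ENSMUSG00000003123, 25379527 to 25398710, minus strand) and Plin1 (ENSMUSG00000030546, 79720218 to 79732903, minus strand) are on chromosome 7. Mgll (ENSMUSG00000033174, 88724412 to 88828360, plus strand) and Cidec (ENSMUSG00000030278, 113424634 to 113435760, minus strand) are on chromosome 6. Plin4 (ENSMUSG00000002831, 56100591 to 56109803) and Plin5 (ENSMUSG00000011305, 56111601 to 56117596) are neighbours on the minus strand of chromosome 17, with 1797 bases between them. Abhd5 (ENSMUSG00000032540, 122351608 to 122381524, plus strand) is on chromosome 9 and G0s2 (ENSMUSG00000009633, 193272161 to 193273217, minus strand) on chromosome 1. All are protein-coding, and counts cover their exons. Lipe, Mgll, Abhd5 and Adrb3 overlap antisense genes, and Plin4 shares 17 exon bases with Hdgfl2 on the other strand. The antisense partners had median counts of 28 beside Lipe, 154 beside Mgll, 0 beside Abhd5 and 144 beside Adrb3, against medians of 56275, 41565, 4663 and 19011 for the members themselves. The exon bases shared with them were 918, 167, 950 and 839 in the same order. How reads in those bases were counted is not known, because the strand setting is not given.

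Promoter sequences are given for the members that the results turn on, most of whose transcripts moved together from library to library. Printed are 100 bases that lie just outside the GENCODE gene and within 250 bases upstream of a RefSeq start (RefSeq on GRCm38.p6), read 5′ to 3′ on the gene's strand. Capitals mark a GC box (GGGCGG or its complement), an E box (CACGTG) or the core of a cAMP response element (TGACG or its complement). Abhd5, Plin4 and Cidec are shown because their levels differed most between SOD1G93A-Lepob/+ and SOD1G93A relative to their error, Plin5 because its pattern stood apart, and Pnpla2 and Mgll as the lipases that open and close the pathway.
Abhd5 (chr9:122351508-122351607, + strand): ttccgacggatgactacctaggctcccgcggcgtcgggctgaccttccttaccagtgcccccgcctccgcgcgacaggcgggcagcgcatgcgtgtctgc
Pnpla2 (chr7:141455088-141455187, + strand): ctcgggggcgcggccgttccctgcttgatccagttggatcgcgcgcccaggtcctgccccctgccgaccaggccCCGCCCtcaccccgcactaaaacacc
Mgll (chr6:88724312-88724411, + strand): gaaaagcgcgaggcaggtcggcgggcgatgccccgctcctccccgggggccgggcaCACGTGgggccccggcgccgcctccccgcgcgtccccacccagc
Plin4 (chr17:56109804-56109903, - strand): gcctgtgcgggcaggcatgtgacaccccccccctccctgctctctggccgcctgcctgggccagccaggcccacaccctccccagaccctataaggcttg
Plin5 (chr17:56117597-56117696, - strand): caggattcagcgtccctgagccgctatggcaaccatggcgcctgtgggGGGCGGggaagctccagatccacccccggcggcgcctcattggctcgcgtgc
Cidec (chr6:113435761-113435860, - strand): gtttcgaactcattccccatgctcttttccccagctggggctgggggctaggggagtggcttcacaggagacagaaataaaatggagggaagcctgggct

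The RefSeq table held promoters for 9 of the members, in 13 windows because Cidec, Lipe, Mgll and Plin5 have 2 starts each, and none for Adrb3. Within the 250 bases upstream, on both strands, a GC box was found in 7 of the 13 windows (of Abhd5, G0s2, Lipe, Mgll, Plin5 and Pnpla2) and in 32.7% of all 32851 windows of that table. An E box was found in 2 of the 13, at Lipe and Mgll, against 6.02% of all windows, and CCAAT in 2, at Plin4 and Plin5, against 33.8%. The core TGACG was found in 2, at Abhd5 and G0s2 (17.8% of all windows), and the whole cAMP response element TGACGTCA, which holds that core, in 0 (1.55% of all windows). The nuclear receptor half-site AGGTCA occurred in 2, at Abhd5 and Plin5 (14% of all windows), and TATAAA in 0 (12.4% of all windows). These are matches of letters in short windows only.

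Total counts per library were 36795376 to 61886313, and levels are given as counts per 1000000 (CPM) after TMM scaling, which evens out differences in library make-up. At this depth the least abundant member, Plin5, had a level of 6.46 CPM in its lowest library. Adipoq, the defining transcript of mature fat cells, was at 1209 to 3262 CPM in the 16 libraries. In 6 libraries (WT replicates 1 and 2, Lepob/+ replicate 3, and SOD1G93A replicates 1, 2 and 4), the mean log2 CPM of 6 lymph node stroma genes was 3.71 to 4.58, and in the other 10 libraries it was -2.78 to -1.11. No SOD1G93A-Lepob/+ library and 3 of the 4 SOD1G93A libraries were among the 6 rich in lymph node transcripts. The library labelled Lepob/+ replicate 4 had a mean log2 CPM of 12.98 over 15 skeletal muscle genes, against 7.52 in WT replicate 3 and at most 3.94 in the others. The library labelled SOD1G93A-Lepob/+ replicate 3 had 599 counts of the Y-linked Ddx3y and 0 of Xist, although it is labelled female. Lep itself, whose ob allele still gives a transcript, had a mean of 431 ± 262 CPM in WT and 468 ± 215 CPM in Lepob/+. With the transgene it was 476 ± 348 CPM alone and 915 ± 621 CPM beside the ob allele (SD, n = 4 each), so its level does not check the genotype. In each of these 2 genotypes replicate 3 was the highest in Lep, at 993 and 1843 CPM. The next highest libraries were at 360 and 691 CPM. Reads of the human transgene were not analysed here.

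Per kilobase of exon, the members spanned a wide range of levels in iWAT. Cidec was the highest at a median of 1047 CPM per kb, rank 30 of the 19736 genes. Pnpla2 at 514 and Plin4 at 408 CPM per kb held ranks 62 and 82. Plin1 at 253, Lipe at 228 and Mgll at 202 CPM per kb came next, followed by G0s2 at 155 and Adrb3 at 135, so 8 of the 10 were among the most abundant 305 genes. Abhd5 at 18.4 CPM per kb had rank 2620 and Plin5 at 4.84 had rank 7939. Within single libraries Cidec was above Pnpla2 in 16 of 16, Pnpla2 above Plin4 in 13, Plin4 above Plin1 in 15, Plin1 above Lipe in 14 and Lipe above Mgll in 15. The order of Mgll over G0s2 held in 11 of 16 libraries and that of G0s2 over Adrb3 in 10, so these neighbours were not separated beyond their spread. Summed, the 10 genes came to 6139 to 13806 CPM in a library.

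**Figure D1:**
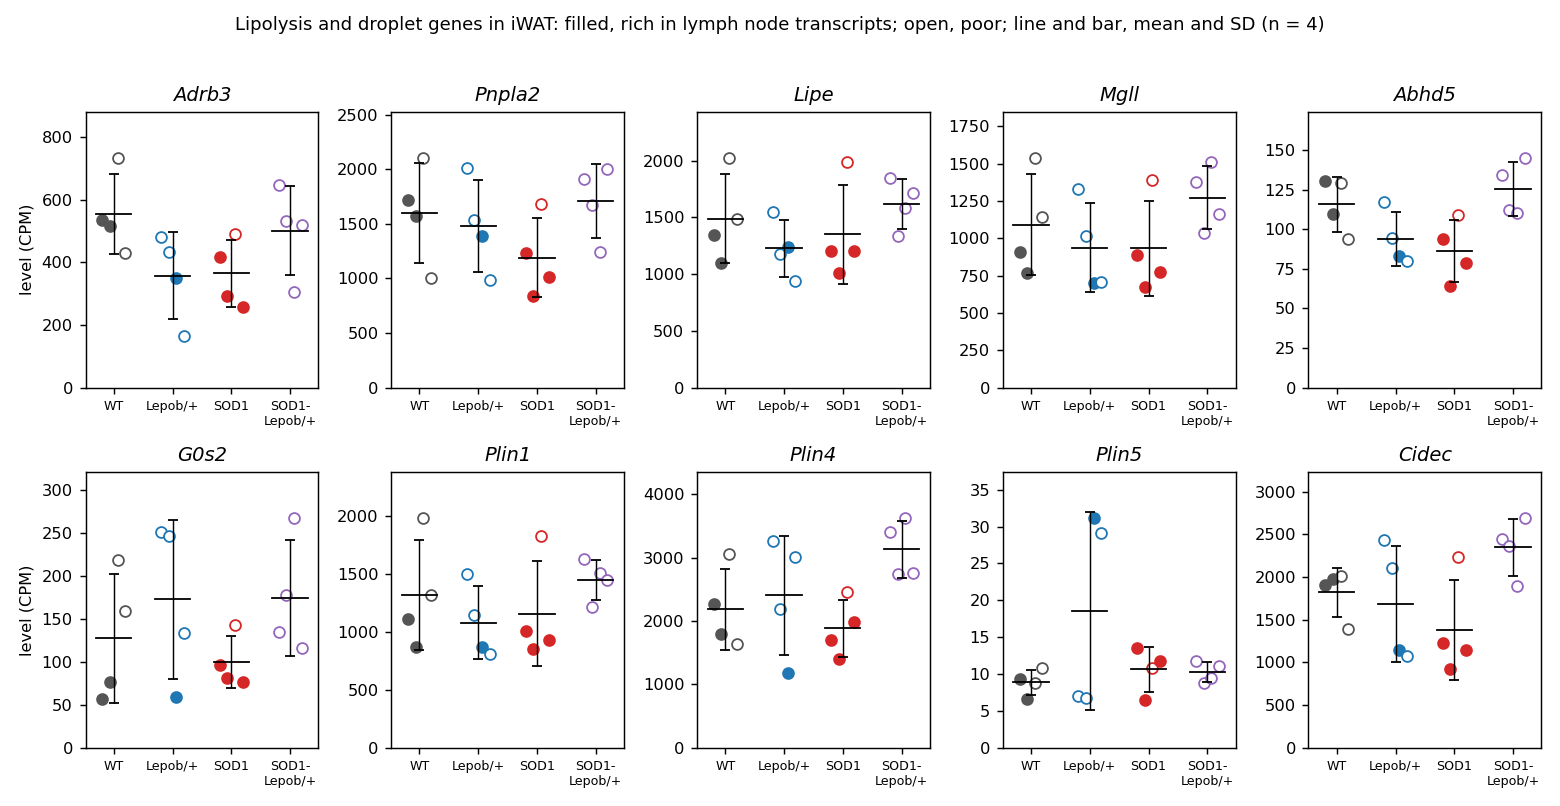
Level (CPM, linear axis) of each member in the 16 libraries, by genotype (SOD1 stands for SOD1G93A), filled points for the 6 libraries rich in lymph node transcripts and open points for the other 10, with mean and SD of 4 libraries. The 3 filled SOD1G93A points lie below the open one for 9 of the 10 members, and Plin5 has 2 high points, both in Lepob/+.

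Adrb3 encodes the beta 3 receptor at the head of the pathway. In replicate order, Adrb3 was at 534, 517, 733 and 429 CPM in WT and 479.9, 432, 349 and 165 CPM in Lepob/+. It was at 416, 293, 490.1 and 257 CPM in SOD1G93A and 647, 532, 306 and 519.9 CPM in SOD1G93A-Lepob/+. Each single mutant had a lower mean than WT and the double mutant lay close to WT, but the ranges of all genotypes overlapped. Against WT the log2 fold change was -0.63 (95% interval -1.33 to 0.06, adjusted p = 1) in Lepob/+ and -0.60 (95% interval -1.30 to 0.09, adjusted p = 0.998) in SOD1G93A. Between the double mutant and SOD1G93A it was 0.46 (95% interval -0.23 to 1.15, adjusted p = 0.475). The difference between the effect of the ob allele in transgene carriers and in other mice, the interaction of both mutations, was 1.09 (SE 0.46, 95% interval 0.12 to 2.07, unadjusted p = 0.031, edgeR adjusted p = 0.564). The lowest value, 165 CPM, belonged to the library with the muscle transcripts, Lepob/+ replicate 4.

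Among the 3 lipases, Pnpla2 (ATGL) was at 1717, 1570.4, 2104 and 1007 CPM in WT and 2010.5, 1533, 1384 and 986 CPM in Lepob/+. In SOD1G93A it was at 1232, 839, 1679 and 1014 CPM, and in SOD1G93A-Lepob/+ at 1906, 1669.6, 1244 and 2004 CPM. SOD1G93A had the lowest mean and the double mutant the highest, with overlapping ranges, and the log2 fold change between them was 0.52 (95% interval -0.08 to 1.12, adjusted p = 0.36). Lipe (hormone-sensitive lipase) was at 1345, 1095, 2025 and 1483 CPM in WT and 1551, 1179.5, 1236 and 944 CPM in Lepob/+. It was at 1204, 1012, 1993 and 1202 CPM in SOD1G93A and 1848, 1334, 1587 and 1715 CPM in SOD1G93A-Lepob/+. Here 1 SOD1G93A library, replicate 3, was higher than each double mutant library while the other 3 were lower than each, and the log2 fold change was 0.26 (95% interval -0.26 to 0.78, adjusted p = 0.593). Mgll, which releases glycerol from monoglyceride, was at 907, 765, 1538 and 1145 CPM in WT and 1326, 1013, 701 and 704 CPM in Lepob/+. It was at 888, 671, 1391 and 774 CPM in SOD1G93A and 1375, 1036, 1507 and 1162 CPM in SOD1G93A-Lepob/+. The same SOD1G93A library lay inside the range of the double mutant and the other 3 below it, and the log2 fold change was 0.45 (95% interval -0.16 to 1.06, adjusted p = 0.432). None of the 3 lipases had an unadjusted p under 0.05 in any of the 5 comparisons.

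Abhd5, which encodes the ATGL activator CGI-58, had the smallest error relative to its difference. It was at 130.3, 109.9, 129 and 93.7 CPM in WT and 118, 94.6, 83.5 and 80.3 CPM in Lepob/+. It was at 94.1, 63.9, 109 and 78.7 CPM in SOD1G93A and 134, 112, 110.1 and 145 CPM in SOD1G93A-Lepob/+. Every double mutant library was above every SOD1G93A library, by means of 126 ± 17.1 against 86.4 ± 19.4 CPM (SD, n = 4 each), a separation seen in 3.58% of all genes. On the log2 scale the difference was 0.54 (SE 0.18, 95% interval 0.15 to 0.92, unadjusted p = 0.00951, edgeR adjusted p = 0.261), and an exact permutation test on log2 CPM (two-sided) gave p = 0.0286, the smallest that 4 against 4 libraries can give. Against WT, Abhd5 in SOD1G93A was -0.42 (SE 0.18, 95% interval -0.81 to -0.04, unadjusted p = 0.0334, edgeR adjusted p = 0.998) on the log2 scale. Against Lepob/+, Abhd5 in the double mutant was 0.42 (SE 0.18, 95% interval 0.03 to 0.80, unadjusted p = 0.0355, edgeR adjusted p = 0.602). The interaction was 0.84 (SE 0.25, 95% interval 0.30 to 1.38, unadjusted p = 0.00509, edgeR adjusted p = 0.564), the lowest unadjusted p of any member in any comparison.

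G0s2, the inhibitor of ATGL, varied more between libraries of 1 genotype than between genotypes. It was at 56.4, 76.3, 219 and 159 CPM in WT and 251, 247, 59.3 and 134 CPM in Lepob/+. It was at 96.6, 81.5, 143 and 77.2 CPM in SOD1G93A and 135, 178, 268 and 116 CPM in SOD1G93A-Lepob/+. The highest library of a genotype exceeded the lowest by 3.88 times in WT, 4.23 times in Lepob/+, 1.85 times in SOD1G93A and 2.31 times in the double mutant. Between the double mutant and SOD1G93A the log2 fold change was 0.81 (95% interval -0.22 to 1.83, adjusted p = 0.4), a wide interval that holds both 0 and the differences of all other members. The values followed the lymph node split: the 6 rich libraries had 56.4 to 96.6 CPM and the other 10 had 116 to 268 CPM, with no overlap, as was so for 4.23% of all genes.

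Of the coat proteins, Plin1 was at 1111, 867, 1983 and 1315 CPM in WT and 1499.6, 1143, 873 and 806 CPM in Lepob/+. It was at 1010.5, 856, 1833 and 933 CPM in SOD1G93A and 1629, 1212, 1508 and 1450.3 CPM in SOD1G93A-Lepob/+. The genotypes overlapped and the log2 fold change between the double mutant and SOD1G93A was 0.32 (95% interval -0.31 to 0.96, adjusted p = 0.586). Plin4 was at 2264, 1791, 3057 and 1632 CPM in WT and 3259, 2189.7, 1178 and 3004 CPM in Lepob/+. It was at 1702, 1395, 2452 and 1985 CPM in SOD1G93A and 3407, 2741, 3625 and 2752 CPM in SOD1G93A-Lepob/+. As for Abhd5, every double mutant library was above every SOD1G93A library, with means of 3131 ± 453 against 1884 ± 449 CPM (SD, n = 4 each). For Plin4 the log2 fold change was 0.73 (SE 0.30, 95% interval 0.09 to 1.37, unadjusted p = 0.0278, edgeR adjusted p = 0.265), with an exact permutation p of 0.0286. Lepob/+ held the lowest Plin4 library of all, replicate 3, beside 2 of the 5 highest.

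Cidec, the droplet fusion protein, was at 1908, 1979.7, 2009 and 1392 CPM in WT and 2429.6, 2101, 1142 and 1069 CPM in Lepob/+. It was at 1222, 921, 2237 and 1143 CPM in SOD1G93A and 2446, 2364, 1896 and 2690.5 CPM in SOD1G93A-Lepob/+. In SOD1G93A, 3 libraries were below each double mutant library and replicate 3 was inside their range. The means were 2349 ± 332 CPM in the double mutant and 1381 ± 585 CPM in SOD1G93A (SD, n = 4 each). The log2 fold change was 0.77 (SE 0.31, 95% interval 0.11 to 1.43, unadjusted p = 0.0261, edgeR adjusted p = 0.262), and the exact permutation p was 0.0571. WT replicate 4 lay below the other 3 WT libraries, which were within 1908 to 2009 CPM.

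Plin5, the least abundant member, did not follow the others. It was at 9.37, 6.6, 8.78 and 10.8 CPM in WT and 7.08, 6.7, 31.1 and 29.2 CPM in Lepob/+. It was at 13.6, 6.46, 10.8 and 11.8 CPM in SOD1G93A and 11.8, 8.84, 9.43 and 11.1 CPM in SOD1G93A-Lepob/+. Replicates 3 and 4 of Lepob/+ were above all other libraries, and replicates 1 and 2 of Lepob/+ were below 10 of the other 12. Lepob/+ against WT gave a log2 fold change of 1.06 (SE 0.44, 95% interval 0.12 to 2.00, unadjusted p = 0.03, edgeR adjusted p = 1), with an exact permutation p of 0.371. With voom, which gives each library a quality weight, it was 0.04 (SE 0.37, adjusted p = 0.978). Without both high libraries, a choice made after their values were seen, it was -0.39 (SE 0.27, adjusted p = 0.794). Both stood apart in other transcripts too. Lepob/+ replicate 3 had the highest thermogenic adipocyte score, a mean log2 CPM of 5.28 over 9 genes, against 1.92 to 4.49 in the other libraries. In it Ucp1, the uncoupling protein of brown and beige fat, was at 313 CPM. Lepob/+ replicate 4 had a thermogenic score of 2.77 and 0.833 CPM of Ucp1, and was the library with the muscle transcripts, where Acta1 of skeletal muscle reached 44647 CPM. The part of these transcripts in the Plin5 values was not tested.

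**Figure D2:**
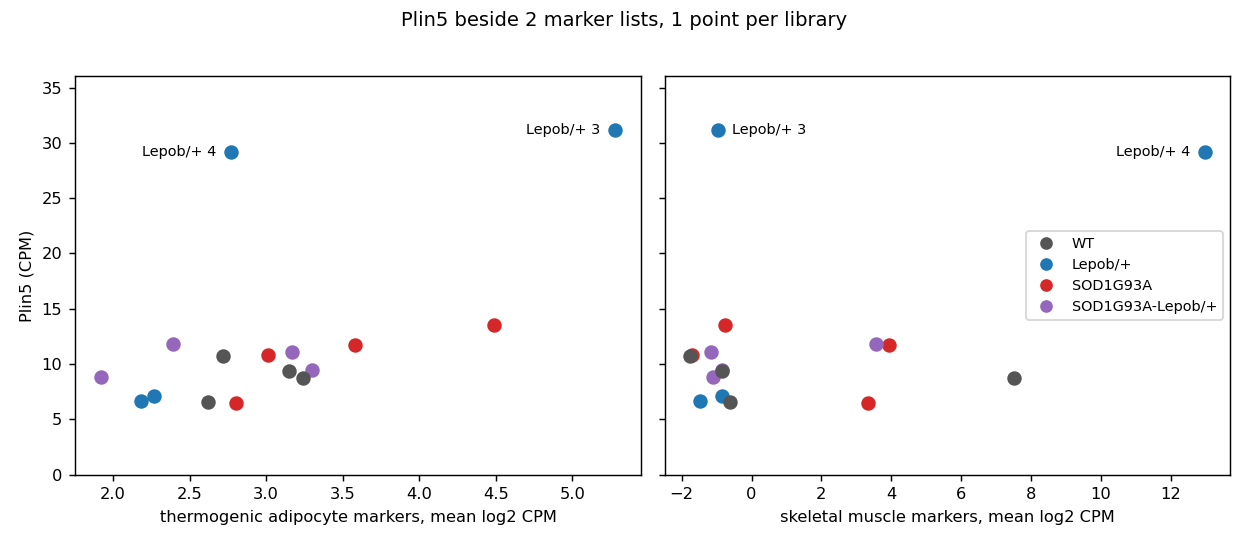
Plin5 (CPM) in the 16 libraries against the mean log2 CPM of 9 thermogenic adipocyte genes (left) and of 15 skeletal muscle genes (right), coloured by genotype. Of the points above 20 CPM, Lepob/+ 3 is farthest right in the thermogenic panel at 5.28 and Lepob/+ 4 is farthest right in the muscle panel at 12.98.

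The effect of 1 ob allele without the transgene was read from Lepob/+ against WT. Of the 10 members 7 had a log2 fold change below 0, where 44.4% of all genes did, and their median was -0.17, against 0.03 over all genes. This direction did not hold under voom, where 7 members were above 0 and the median was 0.13, and leaving out single libraries moved the edgeR median from -0.38 to -0.01. With a covariate in the edgeR fit it was -0.28 (lymph node stroma genes) and -0.12 (mature adipocyte genes). The members ranged from -0.63 for Adrb3 to 1.06 for Plin5, and 1 member, Plin5, was higher at an unadjusted p under 0.05, as were 3.56% of all genes. Separate groups in the lower direction were seen for 0 members and 0.375% of all genes. After adjustment edgeR called 0 members and 0% of all genes, where 862 genes had an unadjusted p under 0.05 and DESeq2 called 0 members and 1 gene.

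The effect of the transgene with both Lep alleles intact was read from SOD1G93A against WT. Here 9 of the 10 members had a log2 fold change below 0 (47% of all genes), with a median of -0.29 against 0.02 over all genes, and Plin5 was the exception at 0.26. The size of that median depended on single libraries: it was -0.01 without WT replicate 3 and -0.55 without SOD1G93A replicate 3. With the mean level of the lymph node stroma genes as a covariate it was -0.06, with 8 members below 0, and with that of the mature adipocyte genes -0.05, with 7 below 0. Of the libraries compared, 3 of 4 in SOD1G93A and 2 of 4 in WT were rich in lymph node transcripts. Abhd5 alone was lower at an unadjusted p under 0.05, as were 0.917% of all genes, and 0 members had separate groups in that direction (0.689% of all genes). Called after adjustment were 0 members and 0% of all genes with edgeR, where 505 genes had an unadjusted p under 0.05, and 0 members and 3 genes with DESeq2.

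The comparison that the study turned on was SOD1G93A-Lepob/+ against SOD1G93A, the effect of 1 ob allele in transgene carriers. The log2 fold change was above 0 for 9 of the 10 members, where 50.1% of all genes were above 0, and Plin5 was at -0.05. The median over the members was 0.49, against 0 over all genes, and the highest values were 0.81 for G0s2, 0.77 for Cidec and 0.73 for Plin4. The double mutant library labelled replicate 3, which had Ddx3y and no Xist, was the highest of all 16 in G0s2 and Plin4. It was the lowest of its genotype in Pnpla2, Adrb3, Abhd5 and Cidec. Without that library alone the median was 0.56 and 3 members had an unadjusted p under 0.05, beside 2610 of 20097 genes. Abhd5, Plin4 and Cidec were higher at an unadjusted p under 0.05, which was 3 of 10 members beside 4.19% of all genes. Abhd5 and Plin4 had groups without overlap in that direction, as had 3.58% of all genes. With edgeR 0 members and 0% of all genes passed the adjustment, where 3261 genes had an unadjusted p under 0.05, and the members' adjusted p ran from 0.261 to 0.965. The tools differed here, over all genes as well as the members. Voom with sample weights called 8 members, all but Plin5 and G0s2, beside 6254 of all 19736 genes. DESeq2 on the 8 compared libraries called Plin4 (adjusted p = 0.014), beside 1780 of 21936 genes. DESeq2 on all 16 libraries called 0 members, beside 565 of 19841 genes. The count of members depended on single libraries, and so did the count over all genes. Without SOD1G93A replicate 3, 7 members had an unadjusted p under 0.05, beside 5635 of 20103 genes. Without SOD1G93A replicate 1 or replicate 2 there was 1, Abhd5, beside 2404 of 20043 and 1473 of 20011 genes. With Lepob/+ replicate 4 left out together with the double mutant library labelled replicate 3, the median was 0.56. In that fit 4 members had an unadjusted p under 0.05, beside 3003 of 20010 genes. Lymph node transcripts moved with this comparison: 10 of 10 T cell genes were measured, and their summed level was 12.1 to 1289 CPM in SOD1G93A and 14.5 to 17.7 CPM in the double mutant. The summed level of 10 B cell genes was 5.9 to 1799.6 CPM and 6.83 to 17 CPM, and that of 6 lymph node stroma genes 14.2 to 702 CPM and 6.64 to 47.1 CPM, in the same order. Red blood cell transcripts moved with it too, in the direction of the members: the summed level of 5 such genes was 316.7 to 747 CPM in SOD1G93A and 705 to 1356 CPM in the double mutant, and it was 719 to 1297 CPM in WT. Their part in the differences of the members was not tested.

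**Figure D3:**
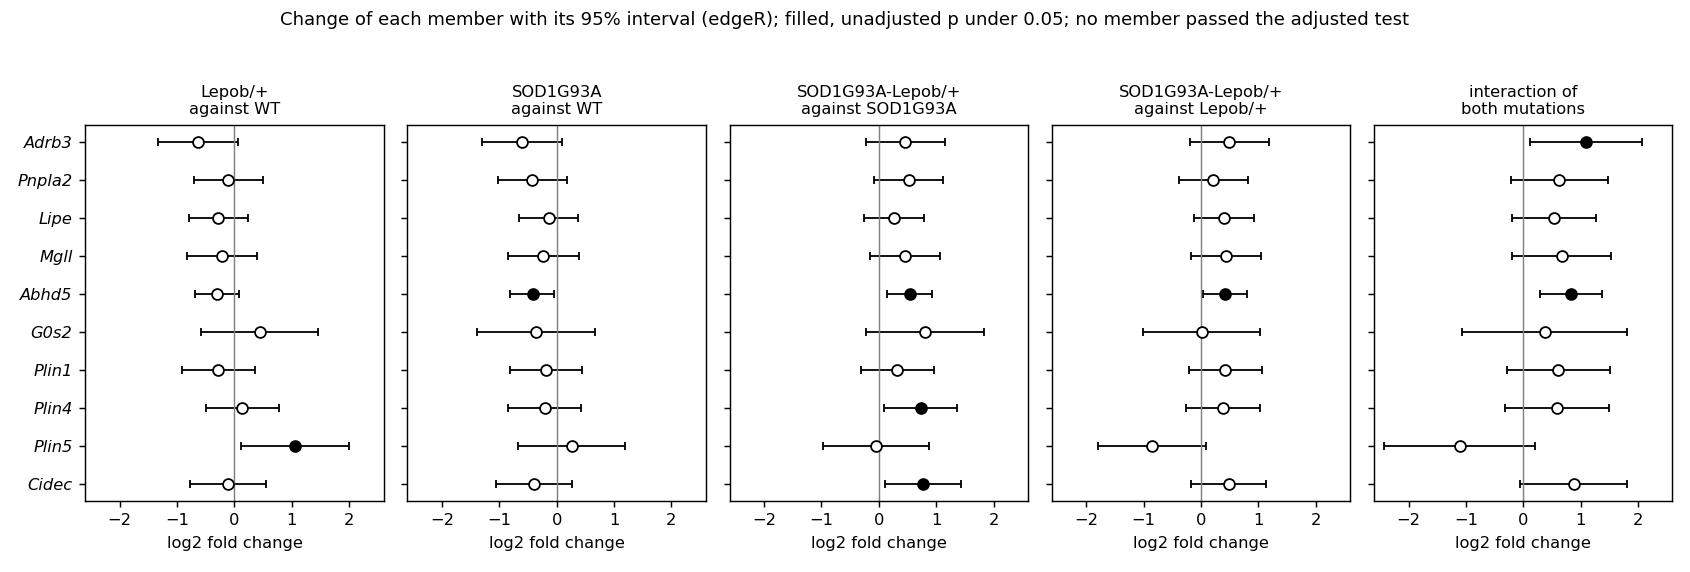
Log2 fold change of each member with its 95% interval from edgeR in the 5 comparisons, 4 libraries per genotype, filled where the unadjusted p is under 0.05. Points of 9 members lie right of 0 in the panel of SOD1G93A-Lepob/+ against SOD1G93A, with Plin5 at -0.05, and 0 members passed the adjusted test in any panel.

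The transgene in mice that all had 1 ob allele was read from SOD1G93A-Lepob/+ against Lepob/+, which shares its double mutant libraries with the comparison before. Above 0 were 9 of the 10 members (42.1% of all genes), with a median of 0.41 against -0.06 over all genes, and Plin5 was at -0.85. Abhd5 was the 1 member higher at an unadjusted p under 0.05, beside 1.96% of all genes, and 0 members had separate groups (1.2% of all genes). Without both Lepob/+ libraries that were high in Plin5 the median was 0.15. With the stroma covariate it was 0.24, with 8 members above 0, and with the adipocyte covariate 0.14, with 7 above 0. For the interaction, which uses all 16 libraries, 9 members were above 0 (42.5% of all genes) with a median of 0.62 against -0.09 (0.30 with the stroma and 0.19 with the adipocyte covariate), and Abhd5 and Adrb3 were the 2 members at an unadjusted p under 0.05 (2.16% of all genes). EdgeR called 0 members and 0% of all genes in both comparisons, where 1626 and 1574 genes had an unadjusted p under 0.05, while DESeq2 on all libraries called 0 members and 68 and 51 genes.

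The levels of most members moved with those of mature adipocyte markers from library to library. The score of 11 mature adipocyte genes, none of them a member, was 9.74 to 10.25 (mean log2 CPM) in the 6 libraries rich in lymph node transcripts and 10 to 10.94 in the other 10. WT spanned 10.03 to 10.94 and Lepob/+ 9.82 to 10.66. The score ran from 9.74 to 10.88 in SOD1G93A, and the double mutant had the narrowest range, 10.43 to 10.66. In the 10 libraries poor in lymph node transcripts, Pearson's r of the log2 CPM with this score was 0.88 for Plin1, 0.86 for Pnpla2, 0.84 for Lipe, 0.80 for Mgll, 0.78 for Abhd5, 0.76 for Cidec and 0.71 for Adrb3. It was 0.44 for Plin4, 0.15 for G0s2 and -0.50 for Plin5, where Spearman's rho was 0.33, 0.13 and -0.21. In the 6 rich libraries it was 0.62 to 0.89 for the first 7 of these members, 0.80 for Plin4, -0.55 for G0s2 and -0.26 for Plin5. These values describe libraries that share their scaling and have a lymph node or muscle content of their own.

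**Figure D4:**
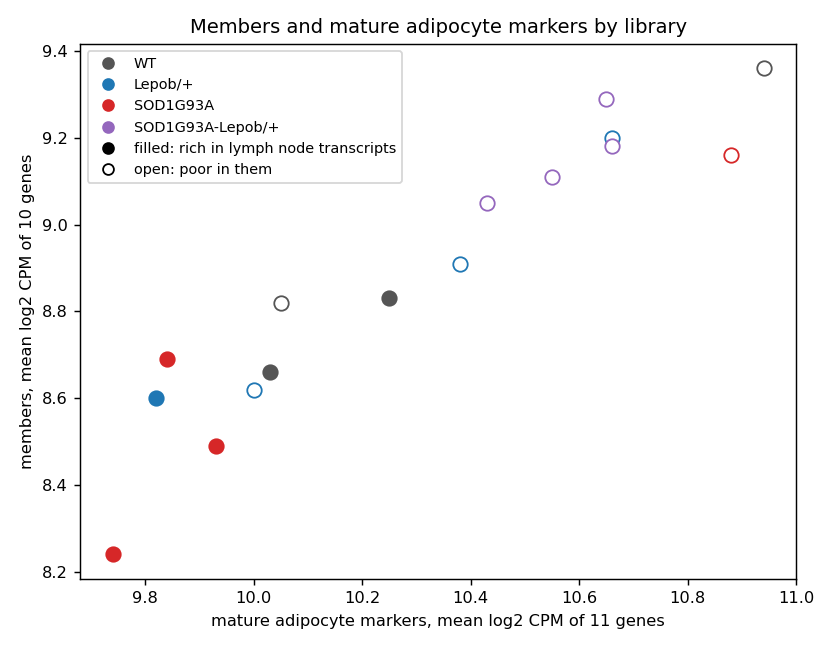
Mean log2 CPM of the 10 members against that of 11 mature adipocyte genes in the 16 libraries, coloured by genotype, filled for the 6 libraries rich in lymph node transcripts and open for the other 10. The 4 double mutant libraries lie between 10.43 and 10.66 on the marker axis, while SOD1G93A has 3 filled points below 10 and 1 open point at 10.88.

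Between the 2 kinds of library, 9 of the 10 members had a lower median in the rich ones (51.7% of all genes), at 0.455 times the median of the others for G0s2, 0.545 for Cidec, 0.607 for Plin4, 0.612 for Plin1, 0.618 for Mgll, 0.767 for Lipe, 0.781 for Pnpla2, 0.789 for Adrb3 and 0.798 for Abhd5. Plin5 was at 1.05 times. G0s2 was the 1 member without overlap between them, beside 4.23% of all genes. Since 3 of 4 SOD1G93A libraries and 0 of 4 double mutant libraries were rich, the comparison of these genotypes cannot be made within the rich libraries, and within the poor ones SOD1G93A has 1 library. That 1 library, replicate 3, had 109 CPM of Abhd5, 2452 of Plin4 and 2237 of Cidec, and the 4 double mutant libraries had 110 to 145 CPM of Abhd5, 2741 to 3625 of Plin4 and 1896 to 2691 of Cidec. So Abhd5 and Plin4 in that library were below each double mutant library and Cidec was inside their range. For Abhd5 the nearest values were 108.9 CPM there and 110.1 CPM in the double mutant library labelled replicate 3, which had Ddx3y and no Xist. With 1 library against 4 this order is a description only, and the share of all genes with such an order was not counted.

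When the mean log2 CPM of the mature adipocyte genes entered the edgeR fit as a covariate, the median log2 fold change of the members between SOD1G93A-Lepob/+ and SOD1G93A was 0.19 instead of 0.49, and 8 of 10 were above 0. With the lymph node stroma genes as covariate the median was 0.17, and 6 of 10 were above 0. Abhd5 was at 0.32 (SE 0.14, unadjusted p = 0.0457) with the first and 0.43 (SE 0.21, unadjusted p = 0.0621) with the second. Cidec was at 0.41 (SE 0.21) and 0.50 (SE 0.33), and Plin4 at 0.39 (SE 0.25) and 0.26 (SE 0.29). Lipe at -0.04 and Plin1 at -0.08 and -0.15 were near 0 under these fits, and G0s2 changed sign with the stroma covariate, to -0.31 (SE 0.36). EdgeR called 0 members with either covariate, with adjusted p of at least 0.998. The lymph node content differed so strongly between these genotypes that its part and that of the genotype cannot be told apart.

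**Figure D5:**
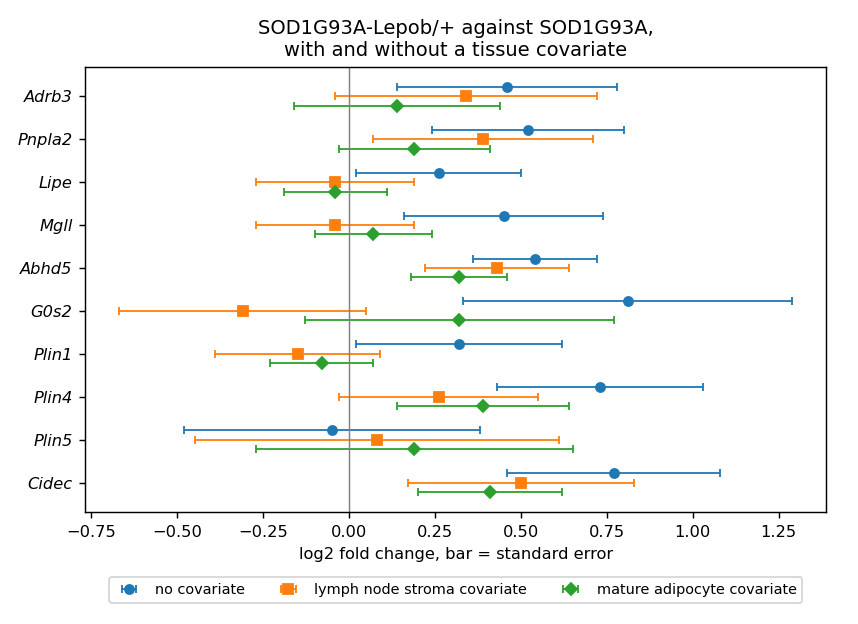
Log2 fold change of each member between SOD1G93A-Lepob/+ and SOD1G93A (bar, standard error) without a covariate, with the lymph node stroma score and with the mature adipocyte score in the edgeR fit. Abhd5 stays right of 0 at 0.54, 0.43 and 0.32, while Lipe goes from 0.26 to -0.04 with either covariate.

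Some ratios between members, taken per kilobase, varied less between libraries than the levels did. The level of the activator Abhd5 over that of its partner Pnpla2 was 0.0297 to 0.0472, a spread of 1.59 times, while Pnpla2 alone spread 2.51 times. The mean of this ratio was 0.0381 ± 0.00676 in WT and 0.0332 ± 0.00543 in Lepob/+. SOD1G93A had 0.0374 ± 0.00302 and the double mutant 0.0379 ± 0.00479 (SD, n = 4 each), so the means differed by less than the spread within WT. Mgll over Lipe spread 1.67 times. In contrast, the inhibitor G0s2 over Pnpla2 spread 6.55 times, from 0.114 in WT replicate 1 to 0.746 in the library labelled SOD1G93A-Lepob/+ replicate 3. The ratio of Plin4 to Plin1 was 1.39 ± 0.322 in WT and 1.84 ± 0.818 in Lepob/+, where replicate 4 had the highest value, 3.00. SOD1G93A had 1.36 ± 0.263 and the double mutant 1.74 ± 0.176 (SD, n = 4 each). That of Plin5 to Plin1 spread 8.17 times.

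Pairs of members differed in how closely they moved. In the 10 libraries poor in lymph node transcripts the highest Pearson's r were 0.98 between Lipe and Plin1, 0.95 between Mgll and Plin1 and 0.91 between Lipe and Mgll. Pnpla2 had 0.88 with Cidec and 0.85 with Abhd5. The median r of a member with the other 9 was 0.59 to 0.77 for Adrb3, Abhd5, Plin1, Lipe, Pnpla2, Cidec and Mgll, 0.18 for Plin4, 0.07 for G0s2 and -0.55 for Plin5. By rank, which gives less weight to Lepob/+ replicate 4 with its high Plin5, the median Spearman's rho of Plin5 with the others was -0.03, and that of Cidec was 0.27. In the 6 rich libraries the median Pearson's r was 0.42 to 0.67 for the same 7 members and Plin4. It was -0.33 for G0s2 and -0.08 for Plin5, whose median rho was -0.31 and 0.09. Plin5 had an r of 0.97 with the thermogenic score in the 6 rich libraries and 0.25 in the other 10.

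Outside the 10, the 5 genes whose log2 CPM was most like the members' mean z-score over 16 libraries were Rab34 (r = 0.955), Chp1 (0.954), Sort1 (0.953), Pon3 (0.951) and Exd1 (0.948). In the 10 libraries poor in lymph node transcripts their r was 0.94, 0.91, 0.95, 0.89 and 0.95 in the same order, and in the 6 rich ones 0.98, 0.94, 0.90, 0.97 and 0.98. They were found by searching all genes, so high values were to be had by the search itself.

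A wider list of 54 genes covered the signal upstream of the lipases, its brakes, other lipases and coats, the handling of the products, and triglyceride synthesis. All 54 were tested, and edgeR called 0 of them in each of the 5 comparisons. In Lepob/+ against WT 3 of the 54 were higher and 0 lower at an unadjusted p under 0.05, beside 3.56% and 0.811% of all genes: the adenylyl cyclase Adcy9, the cAMP phosphodiesterase Pde4d and the protein kinase A subunit Prkar2a. All 3 were highest in Lepob/+ replicate 4, the library with the muscle transcripts, at 37.8 CPM of Adcy9, 56.6 of Pde4d and 312 of Prkar2a. In the other 15 libraries they were at most 12.5, 12.6 and 48.6 CPM. Fitm1, a droplet-forming protein known from muscle, was at 148.5 CPM there and at most 3.64 CPM elsewhere, with an unadjusted p of 0.054. In SOD1G93A against WT 0 of the 54 had an unadjusted p under 0.05 (1.64% of all genes higher and 0.917% lower), and the lowest were 0.0909 for Prkacb, 0.143 for Adcy5, 0.184 for Hcar1, the lactate receptor, and 0.19 for Bscl2 (seipin).

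In SOD1G93A-Lepob/+ against SOD1G93A 3 of the 54 were higher and 1 lower at an unadjusted p under 0.05, beside 4.19% and 12.3% of all genes. Adcy5, an adenylyl cyclase, was at 239.5 ± 55.2 CPM in the double mutant and 117 ± 38.1 in SOD1G93A (log2 fold change 1.04, SE 0.35, adjusted p = 0.261). The caveolar coat protein Cavin1 was at 1623 ± 338 against 951 ± 268 CPM (0.77, SE 0.32, adjusted p = 0.267). The beta 1 receptor Adrb1 was at 6.35 ± 1.39 against 4.17 ± 1.5 CPM (0.61, SE 0.25, adjusted p = 0.267). Prkacb, a catalytic subunit of protein kinase A, was lower at 72.5 ± 9.47 against 94.3 ± 18.6 CPM (-0.38, SE 0.16, adjusted p = 0.275). Above 0 were 39 of the 54, with a median of 0.21, where 50.1% of all genes were above 0 with a median of 0. By role these were 12 of the 14 genes of adrenergic and cAMP signalling, 11 of the 13 of triglyceride synthesis and droplet building and 7 of the 12 brakes on lipolysis, with medians of 0.19, 0.22 and 0.03. The rest were 3 of 5 other lipases, 2 of 4 other coats, 2 of 4 genes handling the products and 2 of 2 natriuretic peptide receptors. Their medians were 0.22, 0.06, 0.16 and 0.71. With the stroma covariate 21 of the 54 were above 0 (42.3% of all genes), and with the adipocyte covariate 30 were (50.1% of all genes). Fabp4, listed among the genes handling the products, is also in the mature adipocyte score, so that covariate is not independent of its value. The medians of the first 3 roles were then 0.02, -0.10 and -0.08 with the first covariate, and 0.07, -0.06 and 0.04 with the second. That of the natriuretic peptide receptors was -0.16 and 0.33.

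Against Lepob/+, the double mutant had 0 of the 54 higher and 4 lower at an unadjusted p under 0.05, beside 1.96% and 6.28% of all genes. They were Pde4d, Fitm1, Adcy9 and Prkar2a, each of which had its highest level in the Lepob/+ library with the muscle transcripts, with adjusted p from 0.597 to 0.602. For the interaction 2 were higher (2.16% of all genes), Hcar1 (log2 fold change 1.08, SE 0.47) and Adcy5 (1.09, SE 0.49), and Pde4d was lower (-2.73, SE 0.86, beside 5.82% of all genes), each with an adjusted p of 0.564.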

How the data were processed

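RNA of 16 iWAT samples was sequenced as paired reads. The paper names a TruSeq Stranded kit and the sample labels a NEBNext Ultra kit. The authors removed low-quality and short reads with fastp, aligned the rest to mm10 with HISAT2 2.1.0 and used featureCounts 2.0.2 to count the uniquely mapped reads of each gene. The deposited values are raw counts per Ensembl gene, with no normalization. The strand setting and annotation release are not given in the sources used here.

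The 10 members and all gene lists were chosen with earlier results of these data known. Testing used edgeR 4.0.16 under R 4.3.3. The filter was filterByExpr (min.count 10, min.total.count 15), libraries were scaled by TMM, and all 16 libraries entered 1 robust quasi-likelihood fit with genotype as the only term, although the paper used DESeq2. P-values were adjusted by Benjamini-Hochberg over 19736 genes, at a threshold of 0.05. The labels do not tie libraries to animals, but the paper says that its sample numbers count animals, so each library was taken as 1 mouse. Log2 CPM used a prior count of 1. The exact permutation tests were two-sided, on log2 CPM.

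Every member is named with its value in each library, and a full test is given for those with an unadjusted p under 0.05 or groups without overlap. Named from the wider list are up to 4 genes per comparison with the smallest unadjusted p, of which 1 is not reported here, and the 5 genes most like the members' mean were found over 16 libraries. The lymph node split of libraries was made on these data, at a mean log2 CPM of 0 of the stroma genes.

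Alternatives were DESeq2 1.42.0 (on every library, and on the 2 compared genotypes alone), limma 3.58.1 voom with quality weights, other size factors, no filter, a filter at 1 CPM in at least 4 libraries, blocking on replicate number, 2 tissue covariates, and leaving out libraries. The procedure was tested on simulated counts. These were drawn gene by gene, without differences in lymph node or muscle content between libraries, so they do not check how it handles such differences. Promoters came from a RefSeq table on GRCm38.p6.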

Additional observations from a re-analysis of the deposited data

Results flagged for a closer look

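In WT the lowest Cidec library, replicate 4 at 1392 CPM, stood apart from the other 3, which were at 1908 to 2009 CPM. Its gap to the nearest of them was 0.859 of the range of the genotype, above Dixon's 95% critical value for 4 samples. It was 1 of 40 groups (10 members in 4 genotypes) to pass, and chance flags about 5% of groups. In the same library Pnpla2 at 1007 CPM, Adrb3 at 429 CPM, Plin4 at 1632 CPM and Abhd5 at 93.7 CPM were also the lowest of WT. Plin1 at 1315 CPM, Lipe at 1483 CPM, Mgll at 1145 CPM and G0s2 at 159 CPM were the second highest. Plin5 at 10.8 CPM was the highest.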

How the results depend on the processing

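With edgeR, 0 members were called under every filter, size factor, block, covariate and left-out library tried. In SOD1G93A-Lepob/+ against SOD1G93A, DESeq2 on the compared genotypes called 1 member (Plin4, adjusted p = 0.014) and voom with quality weights called 8, with Plin4 at 0.82, Abhd5 at 0.65 and Cidec at 1.05 (log2). The cause was not tested. Over all genes edgeR called 0 there, 2 on the compared genotypes alone, DESeq2 565 on all libraries and 1780 on the compared ones, and voom 6254. Elsewhere DESeq2 on all libraries and on the compared ones called 1 and 5 genes in Lepob/+ against WT, 3 and 14 in SOD1G93A against WT, 68 and 31 in SOD1G93A-Lepob/+ against Lepob/+, where voom called 2, and 51 on all libraries for the interaction. The median of the members in Lepob/+ against WT was 0.13 with voom instead of -0.17, with 7 of 10 above 0 instead of 3. In SOD1G93A-Lepob/+ against SOD1G93A it was 0.17 with the stroma covariate and 0.19 with the adipocyte covariate instead of 0.49, and for the interaction 0.30 and 0.19 instead of 0.62. Plin5 in Lepob/+ against WT was -0.39 instead of 1.06 without both Lepob/+ libraries high in it, a choice made after seeing the data. Leaving out 1 library at a time gave medians of -0.38 to -0.01 for Lepob/+ against WT, -0.55 to -0.01 for SOD1G93A against WT, 0.38 to 0.70 for SOD1G93A-Lepob/+ against SOD1G93A, 0.31 to 0.55 for SOD1G93A-Lepob/+ against Lepob/+ and 0.42 to 0.91 for the interaction. No pairing of the samples by replicate number was seen: of 24 pairs with the same number 5 correlated over 0.1 and 8 below -0.1 (range -0.69 to 0.52). Lymph node and muscle transcripts enter these correlations too, so they cannot show that pairing was absent. With the replicate number as a block 0 members were called in each comparison, and the median in SOD1G93A-Lepob/+ against SOD1G93A was 0.53 with 10 of 10 above 0. Depth limits Plin5 most, the member with the fewest counts, though these were still 274 to 1282 per library. Its lowest level was 6.46 CPM.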
